A study of Mus musculus with 24 samples.

Results

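The comparison set the translatome of oligodendrocytes (OLs) in the mouse spinal cord 10 days after a contusion (dpi 10) against that of uninjured cord. It comprised the 6 libraries, of 24 in the series, that were made from immunoprecipitated tagged ribosomes and labelled as naive (3 libraries) or as 10 days after injury (3 libraries), and no measured value was used to choose them. All mice, naive controls included, were female, carried an inducible Cre transgene driven by a promoter of myelin-forming cells and the rpl22HA allele on a C57Bl/6 background, and had received tamoxifen, which switches on the Cre so that ribosomal protein RPL22 carries an HA tag in cells that use that promoter. The dpi 10 mice had received a 50 kdyn contusion at T9 at a labelled age of 10 to 12 weeks, whereas the naive mice had neither injury nor laminectomy. Each library came from cord tissue of 2 mice that were pooled, and the 3 libraries of a group were separate pools. A total RNA library was made from the tissue of each pool too, so OL and total RNA libraries of a pool are paired, while naive and dpi 10 libraries are not. Naive tissue was collected along with that of the 42-day group, so naive mice were older, and further from tamoxifen, than dpi 10 mice, and age at collection cannot be told apart from injury. The promoter also works in Schwann cells, the myelin-forming cells of spinal roots, so tagged ribosomes need not come from OLs alone.

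OLs wrap axons with myelin, a membrane built largely from cholesterol and other lipids that OLs make themselves. Enzymes of cholesterol synthesis are switched on together by the transcription factor SREBP2 when sterols are short. Contusion kills many OLs, brings blood-borne myeloid cells into the cord, and exposes surviving OLs to cytokines, interferons and lipid debris, to which glia can respond with acute-phase protease inhibitors, antigen-presenting molecules and stress regulators.

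Promoter stretches are shown for 3 genes that stand for the groups described most fully: Hmgcs1, which opens the cholesterol pathway and fell on dpi 10, Atf3, a stress-induced transcription factor that rose, and Bst2, an interferon-induced membrane protein that rose. Each line gives the 250 bases before the annotated transcription start, 5′ to 3′ on the strand of the gene, as listed by RefSeq for GRCm38.p6, with matches to a searched motif in capitals.
Hmgcs1: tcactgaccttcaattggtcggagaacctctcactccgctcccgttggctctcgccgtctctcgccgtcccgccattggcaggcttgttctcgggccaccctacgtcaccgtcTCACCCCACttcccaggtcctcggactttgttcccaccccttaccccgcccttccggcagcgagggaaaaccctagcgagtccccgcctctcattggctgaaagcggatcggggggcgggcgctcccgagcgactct
Atf3: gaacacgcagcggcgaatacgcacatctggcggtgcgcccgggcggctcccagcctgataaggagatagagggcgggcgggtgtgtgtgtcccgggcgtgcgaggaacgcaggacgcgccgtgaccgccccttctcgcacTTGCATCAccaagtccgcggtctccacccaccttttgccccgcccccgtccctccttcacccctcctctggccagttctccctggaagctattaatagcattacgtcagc
Bst2: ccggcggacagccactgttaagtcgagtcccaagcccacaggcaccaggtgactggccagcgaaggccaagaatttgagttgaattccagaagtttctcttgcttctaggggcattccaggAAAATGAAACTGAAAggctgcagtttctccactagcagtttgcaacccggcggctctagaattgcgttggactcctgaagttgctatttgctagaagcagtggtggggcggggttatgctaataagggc
The Hmgcs1 stretch lies at chr13:119690101-119690350 on the plus strand, and its capitals mark a match to TCACNCCAC, a short form of the sterol response element, 137 bases before the start. The Atf3 stretch lies at chr1:191183334-191183583 on the minus strand, and its capitals match TGATGNAA, a short form of the ATF4 element, read on the opposite strand 110 bases before the start. The Bst2 stretch lies at chr8:71537473-71537722 on the minus strand and holds 2 overlapping matches to TTTCNNTTT, a short form of the interferon response element, 129 and 123 bases before the start on the opposite strand.
Both strands were searched. The sterol motif was found in 1.05% of 32851 mouse promoters, the ATF4 motif in 3.45% and the interferon motif in 9.37%. Among listed genes with a promoter entry, the sterol motif was found in 1 of 15 cholesterol synthesis genes, the ATF4 motif in 7 of 27 genes of the integrated stress response, and the interferon motif in 18 of 28 interferon-response genes. A listed gene counted if any of its promoter entries held a match, whereas the shares over all promoters count each entry. A match describes letters only, and cholesterol genes that fell with Hmgcs1, such as Cyp51, Lss and Mvd, had no match in this window.

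Depth was even, with 30694911 to 31954139 counts per OL library, and 3 counts corresponded to 0.114 to 0.127 CPM (counts brought to a common library size with edgeR's trimmed mean of M values, TMM). Replicate 3 of the naive OL group stood apart: the median distance of its genes from the other libraries of its group was 0.304 on the log2 scale, against 0.192 to 0.203 for the other 5 libraries. It held less OL message, with a summed 134312 CPM over 15 OL markers against 179035 to 180740 CPM in the other naive OL libraries and 160780 to 164518 CPM on dpi 10. It also held more astrocyte message, 13659 CPM over 12 markers against 2409 to 2626 CPM in its group and 2975 to 7963 CPM on dpi 10. OL markers were far above their level in total RNA in all 6 libraries, since total RNA held 24654 to 30581 CPM of them, which is the pattern of the labelled cell type.

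Markers of other cells changed with injury in OL libraries. Here and in gene lists, rose or fell means a log2 change (log2FC) past 0.5 at an adjusted p (q) below 0.05, as in 8.55% of all genes tested for rises and 5.55% for falls. The summed CPM of 20 myeloid markers was 87.2 to 109 in naive and 547 to 633 in dpi 10 OL libraries, and 7823 to 10644 in total RNA on dpi 10; 19 of 20 rose in OLs. That of 10 fibroblast markers was 57.5 to 132 and 570 to 661, and 7 of 10 rose. Neuron markers ran from 933 to 1107 CPM in naive and from 752 to 879 CPM in dpi 10 OL libraries, with 8 of 16 falling and 1 rising, and no astrocyte marker of 12 passed the test. Among 15 Schwann cell markers 5 rose, with a sum of 5157 to 5396 CPM in naive and 5098 to 6277 CPM in dpi 10 OL libraries against 880 to 1501 CPM in total RNA. Lymphocyte markers stayed below 1 CPM in sum in all 6 libraries. In bulk samples a smaller number of cells and less RNA per cell cannot be told apart, and the part of these other cells in the changes given below was not tested beyond a comparison with total RNA.

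**Figure D1:**
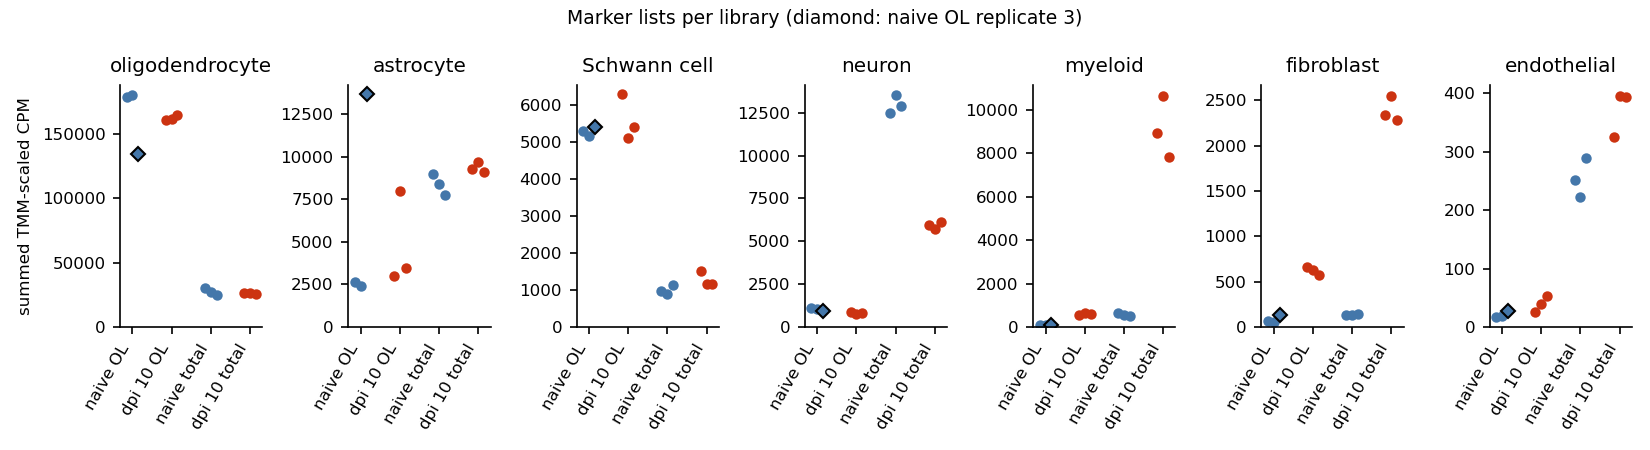
Summed TMM-scaled CPM (linear axes from 0, a scale of its own for each list) of 7 marker lists in each naive (blue) and dpi 10 (red) library of OL and total RNA, with naive OL replicate 3 drawn as a diamond. Myeloid markers rose in OL libraries from 87.2 to 109 CPM in naive cord to 547 to 633 CPM on dpi 10, below total RNA throughout, and astrocyte markers were high in naive OL replicate 3.

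Of 17167 genes tested with edgeR's quasi-likelihood test and Benjamini-Hochberg adjustment (q), 1170 (6.82%) rose and 217 (1.26%) fell in OLs by more than 1 in log2FC at q below 0.05. Dpi 10 and naive libraries did not overlap for 1105 of the risers and 180 of the fallers, where 15.8% of all genes lay apart with dpi 10 higher and 15.4% with dpi 10 lower. Of the risers, 870 (74.4%) also rose past 1 in total spinal cord RNA, as 9.2% of all genes did, with medians of 2.86 in OLs and 2.57 in total RNA, and 751 were depleted from OLs relative to total RNA on dpi 10. Of the fallers, 93 (42.9%) also fell past 1 in total RNA, as 3.07% of all genes did, and 132 were depleted from OLs on dpi 10. Depleted means a log2 ratio of OL to total RNA below -1 at q below 0.05. The share of all genes so depleted is not given, so these counts do not mark the risers out.

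A change was counted as OL-derived by a filter with 2 arms: either the OL change exceeded the total RNA change by more than 1 in the same direction at q below 0.05 (differential OL enrichment), or the gene was enriched in OLs over total RNA by more than 1 at q below 0.05 in naive cord and again on dpi 10. This left 119 risers (0.693% of genes tested), 94 by the former arm and 25 by the latter, and 30 fallers (0.175%), 10 and 21 with 1 gene by both. The median log2FC was 1.80 for these risers and -1.21 for these fallers. Of the 119 risers, 79 were also past 1 on dpi 2 and on dpi 42 and 11 at neither time, and of the 30 fallers 10 and 6. Without 2 dpi 42 libraries whose labels conflict, 1 of them an OL library, the numbers were 76 and 16, and 9 and 6. Each time was compared with the same naive OL libraries, so genes low or high in these tend to recur. No share over all genes is given beside these counts. With the pool as a block in the OL to total RNA comparison the filter kept 114 risers and 26 fallers, 103 and 26 of them among the 119 and the 30. Of the genes named in the text, B3gnt3, Chrna7 and Sox11 no longer passed it. Without naive OL replicate 3 the filter kept 210 risers and 44 fallers, with 86 of the 119 and 25 of the 30 among them.

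**Figure D2:**
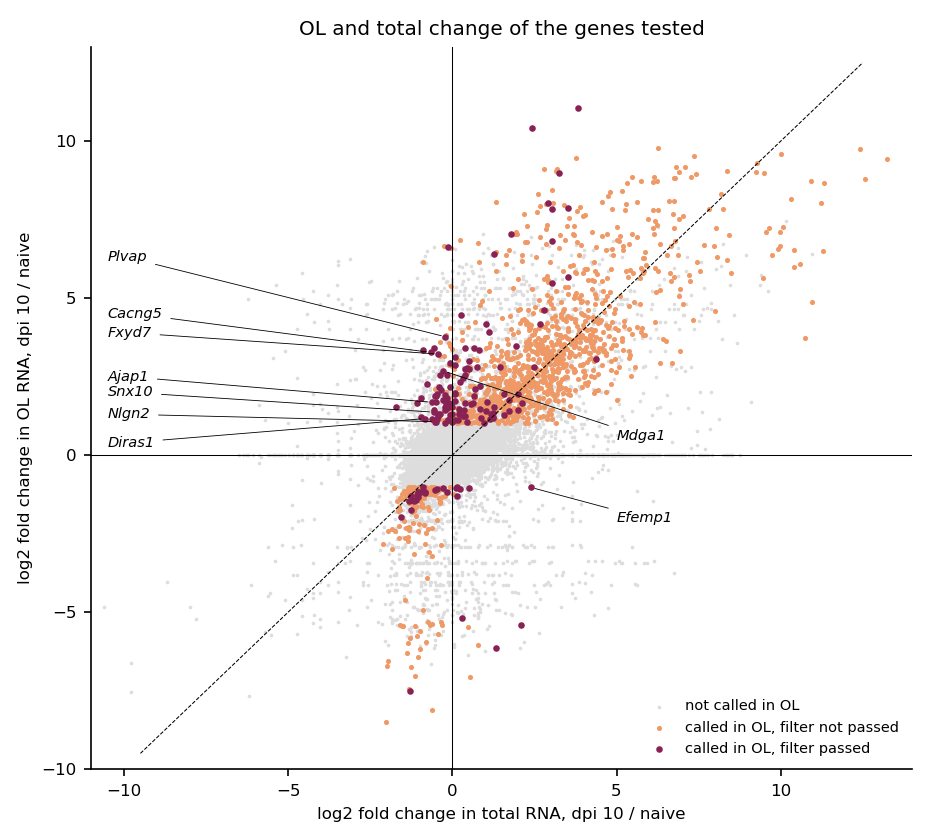
Change from naive to dpi 10 (log2FC) of 17167 genes in total spinal cord RNA (horizontal axis) and in the OL translatome (vertical axis), with genes not called in grey, called genes that did not pass the filter in orange, those that passed in purple and a dashed line of equal change. Points on the line changed equally in both RNAs, and labelled genes such as Fxyd7 (3.22 in OLs, -0.43 in total RNA) changed with opposite signs.

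Risers that passed the filter included secreted proteases and their inhibitors. Klk8 (chr7:43797577-43803826, GRCm38), which encodes the secreted serine protease neuropsin, stood at 0.798, 0.592 and 0 CPM in naive OLs and at 140.2, 114 and 107 CPM on dpi 10. All 3 injured pools lay far above all naive pools, where Klk8 was barely detected. Its log2FC was 8.05 ± 0.50 (q = 5.16e-10; 8.71 without naive replicate 1 and 7.43 without replicate 3) in OLs and 2.90 in total RNA, and the log2 ratio of OL to total RNA (OL/total) turned from -2.07 to 3.07. Serpina3n (chr12:104406729-104414329), an acute-phase inhibitor of serine proteases, held 86.4, 47.2 and 44.9 CPM in naive and 3239, 3022 and 2762 CPM in dpi 10 OLs, with no overlap and little spread among injured pools. It rose by 5.66 ± 0.23 in OLs (q = 1.04e-12) and 3.51 in total RNA, so that message at the total RNA level in naive cord (OL/total 0.08) became OL-enriched (OL/total 2.23). The more abundant OL protease Klk6, which cleaves myelin proteins, was already at 1624, 1608 and 734 CPM in naive OLs, lowest in replicate 3, and reached 3664, 3466 and 3442 CPM, a rise of 1.41 ± 0.25 (q = 0.00036).

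Of 20 serpins and kallikrein-related peptidases tested, 7 rose past 0.5 and none fell, where 8.55% of all genes rose and 5.55% fell past 0.5, and the 13 others did not pass. Their median log2FC was 1.43, or 1.34 with 6 genes that had no count in naive OLs set at a floor of 3 counts, beside a median of 0.00 over all genes. The 7 were Klk6, Klk8, Klk9 (3.09 ± 0.87, 4.03 without naive replicate 2, and no longer passing without replicate 1), Serpina3n, Serping1, which inhibits the complement protease C1 and rose by 3.51 ± 0.74 (7.37 without naive OL replicate 3), Serpina3i and Serpina3c. Serpina3i had no count in naive OLs and 2.10, 3.12 and 1.41 CPM on dpi 10, at least 18.02-fold higher, and Serpina3c stood at 0.0840, 0 and 0 against 2.72, 3.23 and 3.31 CPM. Reads can be split among near-identical copies in the Serpina3 and kallikrein clusters, so assignments to single members are uncertain.

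Other risers that passed the filter have roles in calcium binding, control of cell death and detoxification. S100a1, a calcium-binding protein, went from 168, 179.9 and 205 to 577, 619 and 609 CPM, Nol3, an inhibitor of caspase recruitment and cell death, from 45.8, 37.7 and 54.0 to 145, 137 and 147 CPM, and the glutathione transferase Gstp1 from 239.6, 272 and 247 to 624, 617 and 549 CPM. In each case all dpi 10 pools were above all naive pools, and pools of a group lay close together. The rises were 1.71 ± 0.12, 1.64 ± 0.13 and 1.24 ± 0.11 in OLs against 1.05, 0.58 and 0.32 in total RNA, with q of 2.04e-09, 1.24e-08 and 9.62e-08. Nol3 shares exon sequence with 4931428F04Rik on the opposite strand, and reads of the pair cannot be told apart since the strand setting of counting is not given in the sources used here. Gstp1 was at 0.77 when gene length and GC content were adjusted for, below the threshold of 1. Among 11 S100 genes tested 6 rose past 0.5 and none fell (median 1.87 in OLs, 1.18 in total RNA), and S100a6, which is common in reactive cells, went from 30.4, 31.0 and 43.5 to 116, 168 and 119.9 CPM (1.94 ± 0.31).

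Some abundant risers were near absent from naive OLs. Tagln2, an actin-binding protein, went from 1.39, 0.761 and 2.95 to 82.8, 82.7 and 64.4 CPM (5.48 ± 0.39; total RNA 3.05) and Anxa2, a membrane-binding annexin, from 8.61, 7.53 and 17.4 to 128, 128 and 117 CPM (3.47 ± 0.29; total RNA 1.93). Naive replicate 3 was the highest naive library for both and was still far below dpi 10 levels, and without it Tagln2 was at 6.15. C4b, a component of the classical complement pathway, went from 307, 165 and 194 to 1796, 1527 and 1329 CPM, a rise of 2.81 ± 0.24 with 2.49 in total RNA, so it passed on its OL enrichment before and after injury and not on a larger OL change. C4b has a near-identical neighbour, C4a, and the split of reads between them is uncertain. Sox4, a transcription factor of immature neural and glial cells, went from 2.56, 1.90 and 4.48 to 18.9, 23.5 and 20.02 CPM (2.80 ± 0.26, q = 1.58e-07), and Col16a1, a fibril-associated collagen, from 24.9, 27.8 and 31.6 to 100.1, 83.2 and 84.4 CPM (1.67 ± 0.15, q = 1.07e-07).

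Several filter-passing risers were at 0 counts throughout the naive OL group, for which only a lower bound can be given. Ppl, the junctional linker periplakin, stood at 10.7, 7.65 and 8.41 CPM on dpi 10, at least 72.8-fold above the floor of 3 counts per naive library, and Col13a1, a transmembrane collagen, had 3.73 CPM or more in every dpi 10 library, at least 47.0-fold. The bounds were 17.3-fold for Pclaf, a replication-associated protein at 1.63, 1.56 and 3.16 CPM, 7.81-fold for the phospholipase Pla1a at 0.854, 0.951 and 1.07 CPM and 4.47-fold for the glycosyltransferase B3gnt3 at 0.311, 0.342 and 0.990 CPM. All were low in absolute terms, and B3gnt3 lost its call when only the libraries of naive and dpi 10 mice were fitted. In 12 of the 119 risers no naive OL library held over 3 counts.

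**Figure D3:**
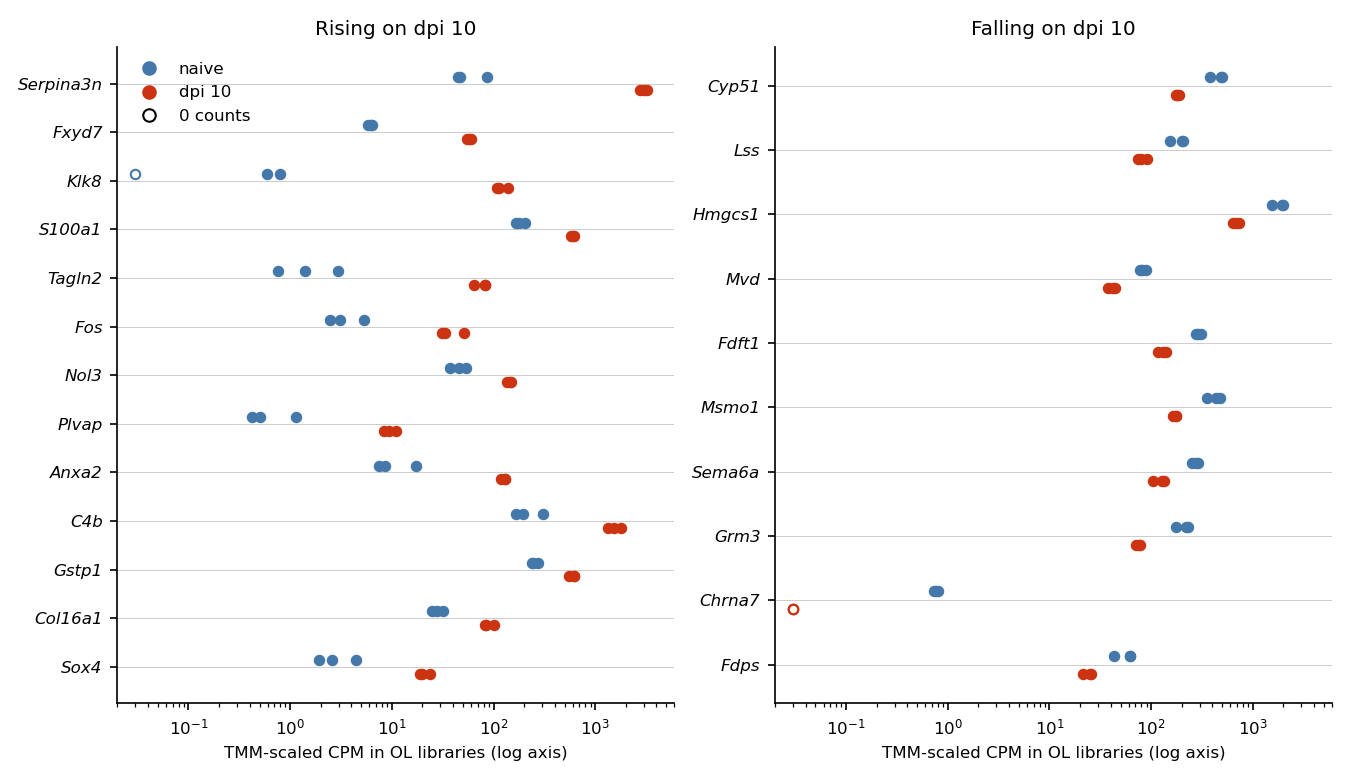
TMM-scaled CPM (log axis) in each naive and dpi 10 OL library for 13 of the 15 rising and 10 of the 15 falling genes of smallest p that passed the filter and whose groups did not overlap, those named in the text, with open circles for a count of 0. Klk8 rose from at most 0.798 CPM to between 107 and 140 CPM, and Chrna7 went from between 0.727 and 0.798 CPM to no count on dpi 10.

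Genes reported for OLs in diseased or injured nervous tissue were mostly higher. Of these, 6 of 27 tested passed the filter, not including Steap3, Cd63, Il33 or Apod. Of 27 such genes tested, 20 rose past 0.5, 18 of them past 1, and none fell, with a median log2FC of 2.05 in OLs and 2.29 in total RNA, and dpi 10 libraries lay above all naive libraries for 21. Steap3, a ferrireductase of iron uptake, went from 1.22, 1.06 and 8.57 to 31.1, 34.9 and 25.0 CPM, a rise of 3.05 ± 0.48 (q = 0.000113) in which naive replicate 3 was the high naive pool and which was 4.73 without it. Without that library the median of the list was 2.71. Cd63, a tetraspanin of late endosomes and exosomes, went from 95.3, 113 and 143 to 429, 466 and 390.3 CPM (1.87 ± 0.19). Il33, an alarmin that is abundant in OLs, went from 871, 996 and 739.9 to 1595, 1273 and 1159 CPM, a smaller rise of 0.63 ± 0.17 that no longer passed without dpi 10 replicate 1 (0.49). Apod, a lipid-carrying lipocalin and already among the more abundant messages, went from 7604, 7945 and 7818 to 14234, 13840.1 and 13426 CPM (0.83 ± 0.15). Among members that did not pass were the cell cycle inhibitor Cdkn1a at -0.27 and the iron carrier transferrin, Trf, at -0.02. On dpi 10 relative to dpi 2, 4 of the list were higher and 12 lower at q below 0.05, where 11.7% of all genes were higher and 10.6% lower.

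Immediate early genes of the AP-1 family were higher in dpi 10 OLs. Fos stood at 5.38, 3.09 and 2.45 CPM in naive and at 31.5, 50.9 and 33.4 CPM in dpi 10 OLs, and Junb at 2.06, 1.99 and 2.26 and 10.7, 23.9 and 13.9 CPM, and neither overlapped between groups. Fos rose by 3.41 ± 0.25 in OLs (q = 8.68e-09) and by 0.67 in total RNA, a difference of 2.74 ± 0.33, and Junb rose by 2.94 ± 0.24 (q = 2.85e-08). Fosl2 rose by 3.34 and Egr1 by 2.10, whereas Jun itself was at -0.17 in OLs and 0.75 in total RNA. Of 18 such genes tested, 10 rose past 0.5 and 1 fell (Arc, -0.70), with medians of 1.79 (2.42 without naive OL replicate 3, where Fosl2 was at 4.06) in OLs and 0.69 in total RNA, and the OL change exceeded the total RNA change for 4 and fell short of it for 1 (4.57% and 3.09% of all genes). The single fall was lost under 9 of 16 other settings.

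Signalling through the shared cytokine receptor subunit gp130 (Il6st) and STAT3 showed a split between components. None of the 26 genes tested passed the filter. The receptor subunit Il6st itself fell, from 242, 254 and 327 to 188, 207 and 174 CPM (-0.53 ± 0.13), while it was at 0.24 in total RNA, whereas Stat3 rose from 191, 195 and 162 to 372, 336 and 309 CPM (0.89 ± 0.10, q = 3.34e-06; total RNA 0.38). The feedback inhibitor Socs3, a STAT3 target, went from 1.13, 0.0423 and 0.268 to 9.09, 19.7 and 14.3 CPM, a rise of 4.90 ± 0.54 (6.46 without naive replicate 1), and dpi 10 pools lay above all naive pools. Clcf1, a ligand of the family, rose by 2.40 ± 0.49. Receptor chains Osmr and Il6ra rose by 3.04 ± 0.63 (4.78 without naive OL replicate 3) and 2.35 ± 0.28, and the targets Bcl3 and Cebpd by 3.83 ± 0.39 and 2.22 ± 0.27. In all, 13 of 26 genes rose past 0.5 and 2 fell (Il6st and Jak2, -0.55), with a median of 0.98 that became 1.78 without naive OL replicate 3, and 7 were lower than on dpi 2 and none higher. The 2 falls dropped to 0 or 1 in 9 of 16 other settings, among them without any of the naive replicates.

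The integrated stress response, in which ATF4 drives genes of amino acid supply and stress repair, was mixed on dpi 10. Atf3 went from 0.462, 0.127 and 0.612 to 9.01, 6.70 and 8.26 CPM (4.29 ± 0.41 in OLs, 5.24 in total RNA), and Cebpb, a partner of ATF4, from 0, 0.254 and 2.26 to 17.5, 13.4 and 16.4 CPM (4.19 ± 0.57, or 6.91 without naive OL replicate 3). Groups did not overlap for either. Atf4 itself stood at 88.9, 94.1 and 72.3 and 89.0, 83.4 and 103 CPM, overlapping, with a log2FC of 0.11 ± 0.13 (q = 0.64), after 1.60 on dpi 2. Nupr1 rose by 2.69 ± 0.48, Atf5 by 0.57 ± 0.14, and the proline synthesis gene Pycr1 by 2.22 ± 0.62, while serine synthesis fell: Phgdh, its entry enzyme, went from 367, 414 and 384 to 252, 237 and 213 CPM (-0.73 ± 0.09, q = 1.14e-05; total RNA -0.21), and Psat1 fell by 0.64 ± 0.11. Of 30 genes tested 8 rose past 0.5 and 3 fell, with a median of 0.25, and 16 were lower than on dpi 2 while none was higher. Without naive replicate 2, 5 rose, and Atf5 and Pycr1 were among those that did not. Atf5 also lost its call without dpi 10 replicate 2 and Pycr1 without dpi 10 replicate 3. None of 20 cytosolic tRNA synthetases, which ATF4 also drives, passed 0.5 in either direction (median -0.14), and 10 of them were lower than on dpi 2.

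Interferon-response genes rose broadly, and 2 of 39 tested passed the filter. Irf7, a transcription factor induced by type I interferon, stood at 2.44, 3.13 and 3.60 CPM in naive and 27.6, 37.7 and 21.9 CPM in dpi 10 OLs, Irf1 at 0.672, 0.804 and 1.61 and 7.34, 8.90 and 9.67 CPM, and Bst2, whose promoter is printed above, at 0.840, 1.73 and 2.72 and 14.2, 20.2 and 15.9 CPM. No naive library reached a dpi 10 library for any of these. The log2FC was 3.25 ± 0.32 for Irf7 (q = 4.64e-07; total RNA 4.15), 3.06 ± 0.33 for Irf1 (q = 1.44e-06; total RNA 2.63) and 3.24 ± 0.35 for Bst2 (q = 1.14e-06; total RNA 4.19). Of 39 genes tested 32 rose past 0.5, 30 of them past 1, and none fell, with a median of 2.44, or 2.28 with 3 genes without a naive count at their bound and 3.37 without naive OL replicate 3, beside 2.75 in total RNA. The OL change exceeded that of total RNA for 1 gene and fell short for 1, and 9 were higher than on dpi 2 while 1 was lower. Ifit2 was at -0.02. The count was 21 when only the libraries of naive and dpi 10 mice were fitted.

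Antigen presentation rose as well, though none of the 22 MHC class I and 9 class II genes tested passed the filter. Relative to total RNA, 11 of the former and 8 of the latter were depleted from OLs on dpi 10. So were 751 of all 1170 genes that rose past 1, and no share over all genes is given. The OL change fell short of the total RNA change for 5 class I genes, as for 3.09% of all genes, and exceeded it for none. The MHC class I heavy chain H2-D1 went from 51.6, 46.5 and 68.3 to 324, 433 and 284 CPM and its light chain B2m from 47.6, 43.3 and 100.2 to 341, 412 and 344 CPM, without overlap, with rises of 2.65 ± 0.16 and 2.52 ± 0.22. Of 9 heavy and light chain genes 8 rose, with a median of 2.52, and of 22 class I genes 13 rose past 0.5 and none fell. Among genes of peptide supply and loading, the immunoproteasome subunit Psmb8 rose by 2.94 ± 0.53 (5.05 without naive OL replicate 3) and the loading factor Tapbp by 0.99 ± 0.11, from 55.3, 59.9 and 57.6 to 115, 123 and 104 CPM, while the general chaperones Canx and Calr were at -0.37 and -0.45. H2-K1 rose less in OLs than in total RNA (1.45 against 2.97, q of the difference 0.00674), and H2 genes have near-identical copies that can share reads. MHC class II genes, which mark professional antigen-presenting cells, were low: Cd74 went from 0.252, 0.381 and 0.918 to 8.08, 6.66 and 8.15 CPM (3.85 ± 0.47, or 4.57 without naive replicate 3), 7 of 9 rose, and the median was 3.85, or 3.50 with 1 gene at its bound, beside 4.94 in total RNA.

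Complement and myeloid genes rose in OL libraries and in total RNA. C1qa, a subunit of the classical pathway initiator made by microglia, went from 4.71, 3.77 and 2.601 to 48.0, 60.5 and 66.0 CPM, a rise of 3.98 in OLs and 4.34 in total RNA, and the microglial adaptor Tyrobp from 0.672, 0.211 and 0.497 to 15.1, 15.3 and 12.6 CPM, a rise of 4.94 and 4.65. The macrophage lysozyme Lyz2 went from 0.378, 0.254 and 0.497 to 121, 136 and 107 CPM, 8.30 in OLs and 8.19 in total RNA. These genes did not pass the filter, and the summed myeloid marker level in dpi 10 OL libraries given above moved with them. Of 19 complement genes 11 rose past 0.5 and none fell, with a median of 2.81, or 2.00 with 1 gene without a naive count at its bound and 2.14 without dpi 10 replicate 3, and 4.31 in total RNA. The membrane inhibitor of complement lysis Cd59a rose in OLs by 0.68 ± 0.18 and was at -0.05 in total RNA, and the osteopontin gene Spp1 went from 4.33, 5.42 and 4.97 to 48.9, 81.3 and 58.5 CPM (3.68 ± 0.22).

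Genes of cholesterol synthesis fell together. Hmgcs1 (chr13:119690379-119708260), which makes the precursor of mevalonate, stood at 2001, 1938 and 1540.3 CPM in naive and 677, 731 and 639 CPM in dpi 10 OLs, and Idi1, the isomerase that supplies dimethylallyl units, at 38.5, 35.4 and 29.5 and 9.63, 13.2 and 9.78 CPM. Every dpi 10 pool lay below every naive pool, with naive replicate 3 lowest of its group. Hmgcs1 fell by 1.42 ± 0.18 (q = 1.17e-05) in OLs and was at -1.10 in total RNA, and Idi1 fell by 1.67 ± 0.30 (q = 0.000426). On dpi 2 Hmgcs1 had been at 0.03, and dpi 10 was lower than dpi 2 (q = 7.07e-06).

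The fall took in all stages of the pathway. Of 20 synthesis genes tested 15 fell past 0.5 and none rose, 11 of them past 1, namely 6 of 8 in the mevalonate arm, 3 of 3 from squalene to lanosterol and 6 of 9 from lanosterol to cholesterol, with medians of -1.06 in OLs and -0.88 in total RNA. Groups did not overlap for 17 of the 20, and 17 were lower on dpi 10 than on dpi 2. Late in the pathway, Msmo1, a sterol methyl oxidase, went from 471, 434 and 355 to 164, 176 and 177 CPM (-1.29 ± 0.17). The 5 members that did not pass were Mvk (-0.04), Pmvk (-0.19), Tm7sf2 (-0.58, q = 0.189), Hsd17b7 (-0.37) and Ebp (-0.20). In none of the 20 did the OL change differ from the total RNA change at q below 0.05, so the 8 that passed the filter did so on OL enrichment. Exons of Fdps overlap those of Gm43738 on the same strand, and those of Cyp51 and Fdft1 overlap Akap9 and Ctsb on the opposite strand, where reads cannot be told apart.

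Regulators of the pathway fell as well. Srebf2, which encodes SREBP2, went from 513, 565 and 543 to 341, 305 and 299.7 CPM (-0.78 ± 0.09, q = 3.78e-06), and dpi 10 pools lay below all naive pools. Insig1, which holds the SREBP2 complex in the endoplasmic reticulum, went from 207, 199.8 and 276 to 79.2, 82.7 and 84.6 CPM (-1.47 ± 0.17), and the sterol carrier Stard4 from 49.1, 40.7 and 33.0 to 15.5, 17.2 and 14.2 CPM (-1.39 ± 0.27). Of 11 control genes 6 fell past 0.5 and 1 rose. The riser was Mylip, a ubiquitin ligase, at 1.20 ± 0.28 in OLs and 2.68 in total RNA. The fall of Scap, the escort of SREBP2, at -0.53 ± 0.09, was at -0.42 with library sizes alone.

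**Figure D4:**
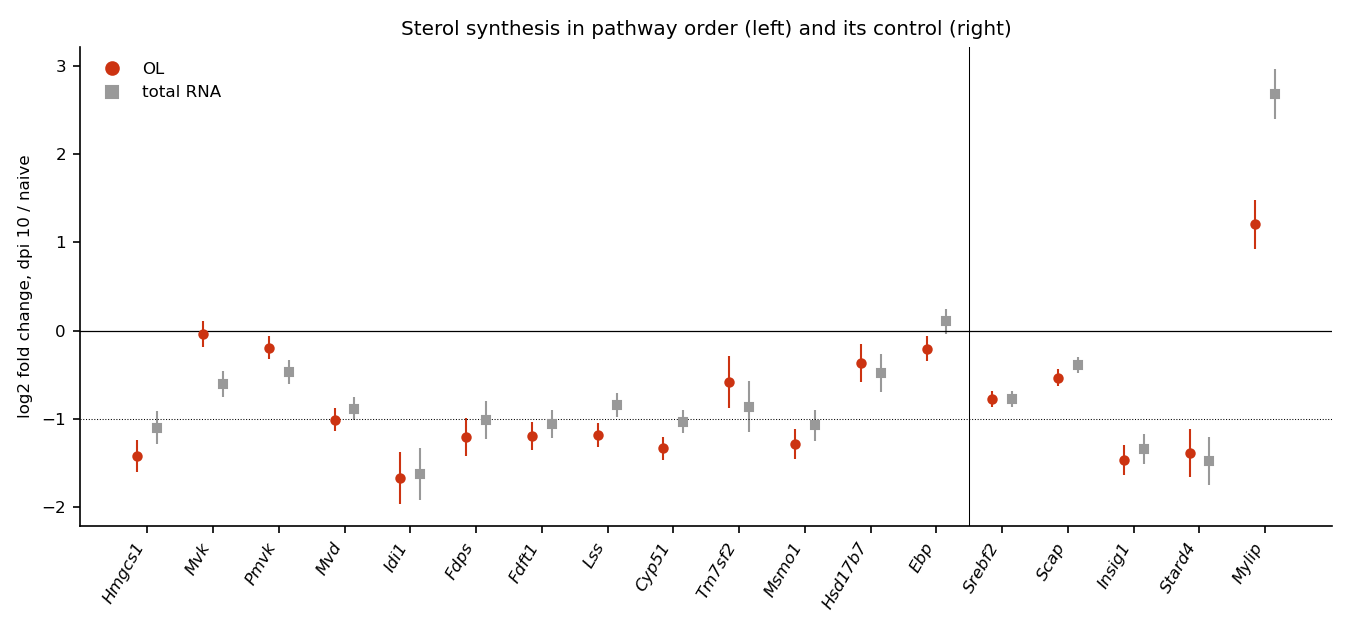
Change from naive to dpi 10 (log2FC ± SE) in OLs (circles) and total RNA (squares) for the 13 of 20 cholesterol synthesis genes (left, in pathway order) and the 5 of 11 control genes (right) named in the text, with a dotted line at -1. The synthesis genes lay below 0 in OLs, from -1.67 for Idi1 to -0.04 for Mvk, and Mylip lay above 0.

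Genes of lipid efflux changed in both directions. Of 15 genes of lipid export and handling 4 rose past 0.5 and 2 fell, with a median of 0.32 against 1.10 in total RNA, and the OL change fell short of the total RNA change for 8. The cholesterol exporter Abca1 rose by 1.08 against 2.52 in total RNA, and lipoprotein lipase, Lpl, from 3.15, 2.07 and 6.39 to 15.8, 21.9 and 18.1 CPM (2.26 against 4.85). Npc1, which moves cholesterol out of lysosomes, fell by 0.63 ± 0.13, and was at -0.35 after adjustment for length and GC content. Apoe was at 902, 1119.6 and 4841 CPM in naive and 5487, 6685 and 4236 CPM in dpi 10 OLs, overlapping through naive replicate 3 (1.26 ± 0.44, q = 0.0505), and without that library 7 efflux genes rose.

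Of 14 genes of fatty acid synthesis 7 fell past 0.5 and none rose (median -0.59 in OLs and -0.57 in total RNA). Scd1, a desaturase that makes monounsaturated fatty acids, went from 1751, 1607 and 1703 to 689, 848 and 712 CPM (-1.17 ± 0.12, q = 3.99e-07), and the more abundant Scd2 from 19164, 20103 and 18060.2 to 11792, 11313 and 10433 CPM (-0.77 ± 0.10). Acly, which makes cytosolic acetyl-CoA for fatty acids and sterols alike, went from 456, 467 and 361 to 199, 189 and 178 CPM (-1.18 ± 0.13), and Fasn, fatty acid synthase, was at -0.51 ± 0.12. None of 9 genes of myelin sphingolipid synthesis passed 0.5 in either direction, and their median was -0.23. Over these 23 lipid genes together the 7 falls became 11 without naive OL replicate 3, and Scd1 was at -0.95 after adjustment for length and GC content.

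Few messages of compact myelin itself passed the test. Mbp, which encodes myelin basic protein, stood at 63254, 64506 and 50379 CPM in naive and 60468, 68566 and 69536 CPM in dpi 10 OLs, overlapping (0.16 ± 0.12, q = 0.436), and naive replicate 3 was the low library. Of 21 myelin genes 2 rose past 0.5 and 1 fell, with a median of -0.03. The fall was Omg, an OL surface inhibitor of neurite growth, from 459, 505 and 423 to 256, 279 and 259 CPM (-0.80 ± 0.16). The rises of Cldn11, the tight junction protein of myelin, at 0.51 ± 0.17 (q = 0.0432) and of Ppp1r14a at 0.51 ± 0.13 were at 0.37 each without naive OL replicate 3 and no longer passed. Ppp1r14a also lost its call without dpi 10 replicate 3, and Cldn11 lost its call whichever library was left out.

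Few regulators of the OL lineage passed the test. Olig2, a transcription factor of all OL stages, fell from 353, 422 and 418 to 254, 239.7 and 222 CPM (-0.74 ± 0.17, q = 0.00386), whereas Olig1 was at -0.31, Sox10 at -0.08 and Myrf, which drives myelin genes, at -0.14. Sox11, a partner of Sox4 in immature cells, rose from 1.68, 1.44 and 1.03 to 5.90, 7.72 and 5.67 CPM (2.22 ± 0.28, q = 7.69e-06). Of 21 such factors 2 rose past 0.5 and 1 fell. Of 19 genes of OL precursors and newly formed OLs 1 rose, Matn4 (1.89 ± 0.37), and none fell, with the precursor receptor Pdgfra at 0.12 and Enpp6, a marker of newly formed OLs, at 0.05. Without naive OL replicate 3, 4 of these precursor genes rose and 3 of the factors fell.

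Some surface molecules through which OLs meet axons and each other fell. Sema6a, a guidance ligand, went from 275, 289 and 251 to 133, 104 and 127 CPM and fell by 1.16 ± 0.16 (q = 2.80e-05) while total RNA was at -0.15, and Sema6a was at -0.89 after adjustment for length and GC content. Plxnb3, a semaphorin receptor, went from 382, 414 and 329 to 239, 206 and 218 CPM (-0.76 ± 0.14), and Unc5b, a netrin receptor, from 811, 923 and 803 to 576, 514 and 586 CPM (-0.60 ± 0.10). Groups did not overlap for these 3. Of 19 axon growth inhibitors and guidance receptors 6 fell past 0.5 and none rose, the others being Omg, Robo1 (-0.65 ± 0.20) and Dcc (-2.64 ± 0.89, the former losing its call whichever of the 6 libraries was left out, the latter whichever but naive replicate 3), while the classical inhibitors Rtn4 and Mag were at -0.28 and -0.03; 3 genes of this list rose without naive replicate 3, and 1 without naive replicate 1 or without dpi 10 replicate 1. Of 20 genes of paranodes, tight junctions and adhesion 8 fell and 1 rose, among them Cntn2, from 3184, 3342 and 2384 to 2238, 1896 and 1962 CPM (-0.55 ± 0.14), and Tjp1, from 189, 182 and 189 to 111, 121 and 110.5 CPM (-0.71 ± 0.16). These were changes close to the threshold of 0.5: the 8 became 2 after adjustment for length and GC content, 1 with library sizes alone, and 3 to 5 without naive replicates 1 or 2 or any dpi 10 replicate.

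Neurotransmitter receptors and synaptic scaffolds changed in both directions in OLs. Grm3, a metabotropic glutamate receptor, went from 222, 229 and 176 to 71.2, 76.7 and 77.8 CPM (-1.47 ± 0.21, q = 4.62e-05; total RNA -1.31), up from -2.90 on dpi 2 (q of the difference 5.20e-05), and Gria4, an AMPA receptor subunit, from 79.3, 82.6 and 119.6 to 49.8, 34.8 and 43.2 CPM (-1.14 ± 0.22). All dpi 10 pools were below all naive pools. Chrna7, a nicotinic receptor subunit, stood at 0.798, 0.761 and 0.727 CPM in naive OLs and had no count on dpi 10, at least 6.63-fold lower (q = 0.000193). Of 45 genes of synapses and glutamate signalling 8 fell past 0.5 and 4 rose in OLs, whereas 23 fell and none rose in total RNA (13.3% and 12.4% of all genes), and the OL change lay above that of total RNA for 6. The risers included Prr7 (1.40 ± 0.39), which no longer passed without naive replicate 1 or dpi 10 replicate 3. The 8 falls became 3 to 5 under 6 of 16 other settings.

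Several Fxyd proteins, small regulators of the sodium pump, rose. Fxyd7 (chr7:31042513-31051467) went from 5.88, 6.18 and 6.43 to 54.3, 57.3 and 60.6 CPM (3.22 ± 0.15, q = 5.11e-12) while total RNA was at -0.43 ± 0.13, and its groups did not overlap. Fxyd1, Fxyd3, Fxyd5 and Fxyd6 rose by 1.65, 1.70, 4.34 and 1.34, the pump subunit Atp1b1 fell by 0.54, and the OL potassium channel Kcnj10 was at -0.49. Without naive replicate 3 Fxyd1, Fxyd5 and Fxyd6 were at 3.09, 5.46 and 2.44. Fxyd1, Fxyd3 and Fxyd6 lost their calls without naive replicate 1 or 2. Fxyd1 and Fxyd6 lost theirs also without dpi 10 replicate 2 and Fxyd1 without dpi 10 replicate 3. Atp1b1 lost its call without naive replicate 1 or 3 or dpi 10 replicate 1. Of 24 genes of this group 7 rose past 0.5 and 4 fell, and 3 or 4 rose without naive replicate 1 or 2, while 2 fell without naive replicate 1 or dpi 10 replicate 3.

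Growth factor messages included large rises at low level. Igf1, an insulin-like growth factor, went from 0.168, 0.296 and 0 to 10.0, 15.5 and 18.3 CPM (6.57 ± 0.47 in OLs, 4.86 in total RNA, 3.13 on dpi 2), and Tgfb1 from 0.504, 0.0846 and 0.535 to 8.12, 6.73 and 8.11 CPM (4.32 ± 0.32). Dpi 10 pools lay above all naive pools for both, and Igf1 was at 7.44 without naive replicate 2 and 5.95 without replicate 3. Neither gene passed the filter. Their OL changes lay above those of total RNA by 1.70 and 0.95 (q of the difference 0.110 and 0.172). In the other direction, Vegfa, the vascular growth factor, went from 15.04, 17.3 and 58.1 to 7.46, 9.78 and 11.9 CPM (-1.63 ± 0.39, q = 0.00568), with naive replicate 3 high. Without it Vegfa was at -0.74 and no longer passed. Vegfb rose by 0.68 ± 0.18, a call lost without naive replicate 2. Ptn, the heparin-binding factor pleiotrophin, fell from 438, 417 and 374 to 271, 261 and 278 CPM (-0.60 ± 0.10) while total RNA was at 0.89 (q of the difference 1.49e-06). Of the neuregulin receptors, Erbb3 fell by 0.80 ± 0.24 and Erbb4 fell by 0.78 ± 0.18, the former losing its call without naive replicate 1 or 2 or dpi 10 replicate 2 or 3. Of 61 growth factors, receptors and feedback genes 16 rose past 0.5 and 5 fell, and 2 passed the filter. In total RNA 19 rose and 11 fell, and medians were 0.24 in OLs and 0.66 in total RNA.

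Several genes of iron handling and redox defence changed in OLs, some apart from total RNA. Gpx4, which reduces lipid peroxides, went from 196, 203 and 198 to 375, 375 and 395 CPM, a rise of 0.94 ± 0.11 (q = 3.32e-06) with total RNA at -0.02 (q of the difference 0.000449), and Srxn1, the sulfiredoxin that restores peroxiredoxins, from 46.3, 40.7 and 37.5 to 80.5, 89.8 and 90.9 CPM (1.07 ± 0.10, q = 3.42e-07; total RNA 0.28). Neither overlapped between groups, and Gpx4 was at 0.47 after adjustment for length and GC content. The transferrin receptor Tfrc, which imports iron, fell from 229, 200.4 and 231 to 142, 120.2 and 131 CPM (-0.75 ± 0.15), and the ferritin light chain Ftl1 rose from 150.1, 137 and 117 to 366, 371 and 389 CPM (1.48 ± 0.15), less than in total RNA (3.37, q of the difference 8.44e-06). Slc39a14, an importer of zinc and iron, rose from 11.2, 11.9 and 8.99 to 31.6, 33.6 and 35.3 CPM (1.65 ± 0.18; total RNA 0.39). Of 22 iron genes 8 rose past 0.5 and 1 fell, and of 27 antioxidant genes 6 rose and 1 fell (Gstm5, -0.58 ± 0.11), with 2 or 3 falling without naive replicate 1 or 2 or without dpi 10 replicate 1 or 3. The metallothionein Mt1 stood at 69.9, 79.5 and 479 CPM in naive and 261, 528 and 303 CPM in dpi 10 OLs and did not pass, and it and Mt2 rose without naive OL replicate 3, by 2.28 and 2.85.

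Genes of cell death and TNF signalling rose in part, in OLs and in total RNA. None of 34 genes of the former and 1 of 20 of the latter passed the filter. In total RNA 14 and 13 of them rose past 0.5 (12.4% of all genes), and 2 and 0 fell. Median changes in total RNA were 0.79 and 1.66, against 0.50 and 0.94 in OLs. The OL change fell short of the total RNA change for 3 and 4 (3.09% of all genes) and exceeded it for 0 and 1. Among p53 targets and the BCL2 family 11 of 34 rose past 0.5 and none fell (median 0.50), including the growth arrest genes Gadd45a (0.96 ± 0.19) and Btg2 (1.61 ± 0.27) and the pro-death members Bax (0.68 ± 0.16) and Bbc3 (1.64 ± 0.45), while the survival members Bcl2l1 and Bcl2l2 were at -0.17 and -0.45. The 11 became 7 under 3 other settings, among them without dpi 10 replicate 2, and Bbc3 lost its call without naive replicate 2 or 3 or dpi 10 replicate 2. Of 20 genes of TNF and NF-κB signalling 7 rose and none fell, including the receptors Tnfrsf1b (4.44 ± 0.42) and Tnfrsf12a (2.87 ± 0.46), and Rela, the main transactivating subunit, stood at 115, 127 and 117 and 118, 122 and 121 CPM, 0.00 in OLs against 1.01 in total RNA (q of the difference 0.000927). Cell cycle genes rose for 16 of 27, such as Mki67, from 0.168, 0.296 and 0.115 to 3.92, 4.49 and 2.63 CPM (4.24 ± 0.50), and Ccnd1, from 14.9, 17.05 and 27.5 to 53.5, 68.3 and 61.0 CPM (1.62 ± 0.21), with a median of 1.86 in OLs and 1.82 in total RNA.

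Lysosomal genes rose far less in OLs than in total RNA. Ctsd, a main lysosomal protease, went from 313, 326 and 359 to 558, 643 and 546 CPM, 0.81 ± 0.13 in OLs and 3.73 in total RNA, and Ctsb from 819.6, 907 and 859.6 to 2259, 2329 and 2024 CPM, 1.35 ± 0.12 and 2.28. Dpi 10 OL pools still lay above all naive OL pools. Of 32 lysosomal genes 13 rose past 0.5 and none fell, with medians of 0.30 in OLs and 1.62 in total RNA, and the OL change fell short of that in total RNA for 21. Of the list, 17 were higher than on dpi 2 and 1 lower.

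Extracellular matrix genes rose in OL libraries and in total RNA. Of 23 collagens 21 rose past 0.5 and none fell (median 2.44 in OLs, 3.22 in total RNA), of 30 glycoproteins and proteoglycans 12 rose and 1 fell, and of 18 proteases and inhibitors 8 rose. Col1a1, the main fibrillar collagen of fibroblasts, went from 1.98, 1.35 and 5.66 to 168, 163 and 174 CPM (5.80; total RNA 6.62), and the summed level of fibroblast markers given above moved with it. Mmp17, a membrane-anchored metalloproteinase, differed: it went from 2.44, 1.35 and 2.10 to 6.45, 7.95 and 6.24 CPM and rose by 1.80 ± 0.27 in OLs with total RNA at -0.94. Spock3, a proteoglycan, fell from 613, 576 and 379 to 280.4, 274 and 296 CPM (-0.88 ± 0.17).

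**Figure D5:**
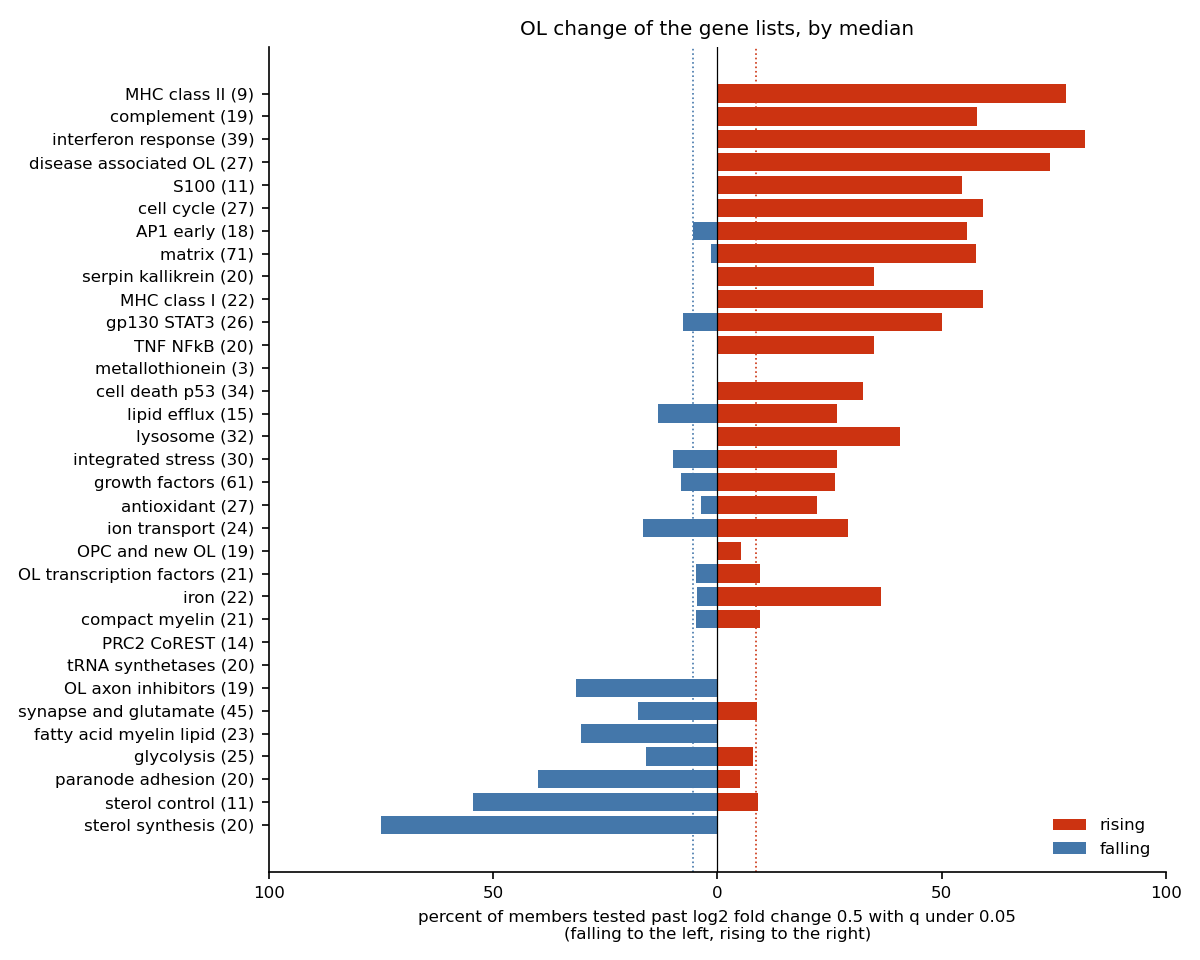
Percent of tested members that rose (right) or fell (left) past 0.5 at q below 0.05 in dpi 10 OLs, for each gene list, sorted by median change, with dotted lines at the shares of all genes (8.55% rising, 5.55% falling). MHC class II, complement and interferon lists lay at the rising end, and cholesterol synthesis and its control at the falling end.

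Few genes of glycolysis and chromatin repression passed. Of 25 glycolytic genes 2 rose past 0.5 and 4 fell, including Pfkl (-1.17 ± 0.24) and Eno1 (-1.07 ± 0.31), and the number that fell ranged from 0 to 8 over other settings. Without naive OL replicate 3 Pfkl was at -0.63 and Eno1 at -0.43, where Eno1 no longer passed, as also without dpi 10 replicate 1 or 3. Eno2, the neuronal enolase, went from 71.3, 56.4 and 49.6 to 99.5, 84.8 and 97.9 CPM in OLs (0.67 ± 0.16) while total RNA was at -0.97. None of 14 subunits of the repressor complexes PRC2 and CoREST passed 0.5, and their median of -0.09 changed sign under 2 other settings.

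Few genes changed in OLs and, at q below 0.05, in the opposite direction in total RNA, 8 of 1170 risers and 2 of 217 fallers. Others changed in OLs while total RNA, with the opposite sign, did not pass. Cacng5, an auxiliary subunit of AMPA receptors, went from 1.64, 2.67 and 0.803 to 20.1, 14.9 and 14.2 CPM (3.27 ± 0.32, q = 3.30e-07; total RNA -0.66, q = 0.0747), and Mdga1, a membrane-anchored regulator of synapse formation, from 4.75, 3.13 and 6.08 to 35.7, 28.7 and 25.5 CPM (2.68 ± 0.28; total RNA -0.28, q = 0.456). Nlgn2, a neuroligin of inhibitory synapses, went from 51.1, 59.2 and 43.6 to 111, 98.6 and 112 CPM (1.07 ± 0.13, or 0.96 without naive OL replicate 3; total RNA -0.51, q = 0.00393), and is 1 of the 8. Groups did not overlap for these 3, and OL and total RNA changes differed at q of 6.01e-06, 4.11e-05 and 1.82e-05. Plvap, a protein of endothelial fenestrae, went from 0.504, 0.423 and 1.15 CPM in naive OLs to 8.39 CPM or more in every dpi 10 library (3.77 ± 0.31) with total RNA at -0.21, while summed endothelial markers were 17.6 to 27.3 CPM in naive and 25.4 to 52.6 CPM in dpi 10 OL libraries.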

How the data were processed

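The authors aligned reads with STAR to mm10 (GRCm38.p6) after FastQC 0.10.1 and counted them per gene with HTSeq 0.10.0, and the deposited values are these raw counts. The annotation release and the strand setting of counting are not given in the sources used here. The test was the quasi-likelihood F test of edgeR 4.0.16 under R 4.3.3, with TMM scaling. All 24 libraries in 8 groups of 3 were fitted, after removal of genes with fewer than 10 counts in sum (17167 of 21965 genes tested), with Benjamini-Hochberg adjusted p (q). Calls needed q below 0.05 and a log2FC past 1, or past 0.5 in gene lists. SE was the log2FC divided by the square root of F. All columns were used, and each mapped to its sample through its label. Labels of 2 dpi 42 libraries conflict, and these entered the shared spread and counts of genes past 1 on dpi 42.

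Named genes were the 15 rising and 15 falling genes of smallest p that passed the filter without overlap of groups, the 10 largest rises among these, the 10 of smallest p in each direction that did not pass, the 10 opposed most clearly to total RNA, and for each list the 4 of smallest p. Other list members were named after their values were seen, and some genes that the rule picks are not reported here. The comparison and gene lists were chosen with earlier results of these data known. Naive and dpi 10 libraries are not paired: deviations of same-numbered OL libraries correlated at 0.08, -0.14 and -0.08. OL and total RNA libraries of a pool share tissue, as column names show, and their deviations correlated at 0.02 to 0.14. The authors paired them for differential OL enrichment; here the fit has no block, and a fit with the pool as a block was added after the data were seen. DESeq2 1.42.0, other scalings, filters and designs were tried as alternatives. The test was tried on simulated data. Gene positions came from GENCODE M21 for GRCm38 and promoters from RefSeq.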

Additional observations from a re-analysis of the deposited data

Results flagged for a closer look

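Over all genes tested, 8 risers and 2 fallers in OLs changed in the opposite direction in total RNA at q below 0.05. The 6 of them given here were among the genes named by rank outside the lists. Their OL and total RNA changes also differed by a test of the difference itself (edgeR interaction term, q below 0.05). The OL change minus the total RNA change was 3.65 for Fxyd7 (3.22 in OLs, -0.43 in total RNA), 2.30 for Ajap1 (1.68, -0.62), 2.01 for the small GTPase Diras1 (1.16, -0.84), 1.94 for the sorting nexin Snx10 (1.37, -0.57) and 1.58 for Nlgn2 (1.07, -0.51). It was -3.42 for Efemp1, an extracellular matrix protein that stood at 32.6, 36.0 and 18.8 CPM in naive and 14.3, 11.2 and 17.3 CPM in dpi 10 OLs (-1.03, 2.39 in total RNA). All dpi 10 OL libraries lay beyond all naive OL libraries in the direction of the OL change for each of the 6. The OL change of Diras1 was 0.99 after adjustment for length and GC content, and Nlgn2 was at 0.96 without naive OL replicate 3. Efemp1 lost its call under 9 of 16 other settings, including without naive replicate 1 or 2 and without dpi 10 replicate 1 or 2, where its change lay between -0.85 and -1.03.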

How the results depend on the processing

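As reported, the OL genes called on dpi 10 were 1170 up and 217 down, and 119 and 30 after the filter, and 16 other settings were run. With only the libraries of naive and dpi 10 mice fitted they were 730, 98, 189 and 48, with the 12 OL libraries alone 658 up and 77 down, in both cases with fewer libraries to estimate the spread. With library sizes in place of TMM scaling 144 genes fell, 15 of them past the filter, and with an offset for gene length and GC content 19 fallers passed it; the cause was not tested. Leaving out each library in turn gave 897 to 1394 up, 182 to 222 down, and 84 to 210 and 25 to 44 after the filter, the highest of 1394, 210 and 44 without naive OL replicate 3. DESeq2 called 1393 up and 268 down, 172 and 36 after the filter. Rising genes made 84.4% of calls and 80.2% to 89.5% under other settings.

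Replicate numbers do not pair naive with dpi 10 libraries, and with the number as a replicate block the counts were 1127, 188, 123 and 28. OL and total RNA libraries of a number share a pool, and with the pool as a block, a setting added after the data were seen, the filter kept 114 and 26. Among named differences between OL and total RNA changes none printed with a q lost its call with that block, and the number of efflux genes whose OL change fell short went from 8 to 6. Of 161 named genes none reversed, 71 of their values over all settings no longer passed and 11 newly did. Of 33 list medians, only that of PRC2 and CoREST subunits changed sign while lying further from 0 than its spread between libraries of a group. It went from -0.09 to 0.0719 with the length and GC offset and to 0.0264 with library sizes. Medians within their spread of 0 changed sign too, such as compact myelin (-0.03, or 0.04 without naive OL replicate 2). That of OL transcription factors went from 0.02 to -0.13 without naive OL replicate 1. Falls in the interferon, class I, complement, serpin, lysosome, disease-associated and matrix lists numbered 0 or 1 as reported and differed by at most 1 gene without a single library. Rises numbered 8 of 26 gp130 and 8 of 22 class I genes with only the groups compared, and 10 of 61 growth factor and 9 of 27 cell cycle genes with OL libraries alone.

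Depth limits the 233 of 1170 risers that had no more than 3 counts in any library of naive OLs, whose size cannot be given beyond a bound. With 3 pools a group, differences near 0.5 depend on single libraries, most often on naive OL replicate 3. Age at collection and time since tamoxifen differ between the groups compared and cannot be told apart from injury.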

Other observations

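Hox genes of groups 10 to 13, which are used at posterior levels of the body, varied among pools of the same group. This was noticed after the data were seen, and its cause was not tested. The summed level of 11 such genes was 0.336, 9.01 and 21.8 CPM in naive OL replicates 1 to 3, and 9.57, 153 and 215 CPM in total RNA of naive pools. On dpi 10 it was 3.30, 2.28 and 1.33 CPM in OLs and 41.1, 23.8 and 16.3 CPM in total RNA. Counts of the 8 genes of groups 11 to 13 were 0, 2 and 143 in naive OL replicates 1 to 3, and 0, 242 and 1463 in naive total RNA, whereas no dpi 10 library of either kind had a count. No gene of this set was called in OLs. The naive pools with posterior Hox message included replicate 3, the library that also stood apart in astrocyte markers.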
